A study of Mus musculus with 30 samples.

Results

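Gene expression in heart was compared with that in white adipose tissue of mice that carried the control vector. The 13 libraries were 6 of heart, titled L1, L2, L5, L6, L8 and L9, and 7 of white fat, titled G-L133 to G-L139, out of 29 in the deposited count table and 30 in the labels. The remaining fat library of that vector, G-L140, was left out because it carries heart RNA, so the members were chosen by a measured value, the level of cardiomyocyte transcripts in that library. All mice were males of the C57BL/6J strain that had received AAV8-GFP, an adeno-associated virus vector that mainly transduces hepatocytes and here encodes green fluorescent protein (GFP). For 7 weeks every animal ate a high-fat diet (HFD) together with l-NAME, which blocks the synthesis of nitric oxide, and tissues were taken at an age of 15 weeks. Vector, diet and inhibitor are therefore shared by both tissues, and no untreated tissue enters the comparison. The labels name neither the fat depot nor the promoter of the vector, and they do not say whether a heart and a fat library came from the same mouse or whether each library is a separate mouse. The p-values thus measure the spread between these libraries, which may in part be technical. Mice given AAV8-F11, the same vector type encoding coagulation factor XI, on the same diet with l-NAME provided 7 heart and 8 fat libraries that the choice did not use.

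The heart is a striated muscle that contracts without pause and makes nearly all of its ATP in mitochondria, mainly from fatty acids. Its myocytes hold sarcomeres, the repeating units of thick myosin and thin actin filaments, and a sarcoplasmic reticulum that releases and takes up calcium at each beat. White fat stores triglyceride in the large lipid droplet of each adipocyte, releases fatty acids by lipolysis and secretes hormones such as leptin and adiponectin. Both tissues also hold endothelial cells, mural cells, fibroblasts and macrophages. In obese mice the macrophages of fat increase in number and gather around dying adipocytes.

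Total counts were 25751607 to 30591023 per heart library and 16832108 to 22525275 per fat library. Counts of mitochondrially encoded genes made up 33.6 ± 1.11% (SD, n = 6) in heart and 4.84 ± 0.655% (SD, n = 7) in fat. In heart 39 to 60 genes held 50% of all counts, and in fat 651 to 772 genes did. Levels are given as counts per 1000000 (CPM), scaled by TMM, a method that assumes that most genes differ little between libraries. The TMM factors were 0.676 to 0.728 in heart and 1.32 to 1.41 in fat, so scaled levels differ from plain shares of counts by about 1 unit on the log2 scale between the tissues. A count of 0 allows up to 0.0981 to 0.116 CPM in a heart library and 0.133 to 0.178 CPM in a fat library before this scaling. The library numbers form separate series for the tissues, and the labels name both single and paired-end sequencing without saying which libraries had which, so a batch and the tissue cannot be told apart.

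The labelled tissues were checked against their markers. The summed level of 12 cardiomyocyte markers was 80808 to 86796 CPM in heart and 35.3 to 149.4 CPM in the 7 fat libraries, none of the markers being at 0 in fat. G-L138 held 149.4 CPM and was the highest fat library for all 12 markers, while the other 6 fat libraries held 35.3 to 48.3 CPM. G-L140, which was left out, held 7744 CPM, with a median over the markers of 10.2% of the heart level against 0.0506 to 0.189% in the fat libraries that were kept. The summed level of 15 white adipocyte markers was 17978 to 23847 CPM in fat and 3085 to 3809 CPM in heart. In heart this sum came mainly from markers that muscle also uses, such as the fatty acid transporter Cd36, and the median marker stood at 0.0874% (L8) to 0.774% (L1) of its fat level. Because G-L140 was left out for its heart RNA, the choice of libraries itself bears on the GFP values of heart muscle genes. Counts and levels of these genes with GFP are therefore a description, and their test is the one in the F11 libraries, all of which were kept.

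**Figure D1:**
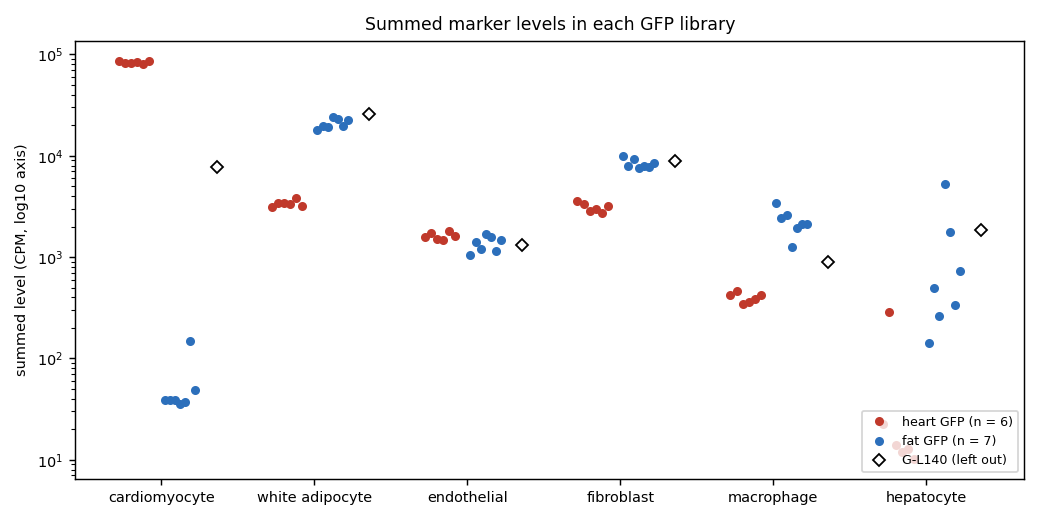
Summed level of 6 marker lists in each GFP library, in CPM on a log10 axis, with 1 point per library; heart libraries are red, fat libraries are blue and the open diamond is G-L140, which was left out. Cardiomyocyte markers lie at 80808 CPM or more in heart and at 149.4 CPM or less in the fat libraries kept, with G-L140 at 7744 CPM between them.

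Most genes differed between the tissues. Of 15576 genes tested, 6256 (40.2%) were higher in heart and 6580 (42.2%) were higher in fat by edgeR's quasi-likelihood test at a Benjamini-Hochberg adjusted p under 0.05, which makes 82.4% in all. Since nearly any gene passed, a stricter test asked whether the difference exceeded 2-fold, and 2652 genes (17.0%) passed it for heart and 3163 (20.3%) for fat, 37.3% together. A gene is called more than 2-fold higher below only where it passed that test, and these shares are the background for every list. Levels did not overlap between the 6 heart and 7 fat libraries for 10269 genes, or 65.9%. The log2 differences given are heart minus fat, so a positive value is higher in heart. By fitted size, 258 of the genes more than 2-fold higher in heart and 166 of those more than 2-fold higher in fat differed over 100-fold, while 1167 and 1156 lay between 2-fold and 4-fold.

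The split depends on the scaling. With library totals alone, a setting chosen after seeing the data, the median log2 difference over all genes moved from -0.04 to -1.03. The calls then became 2509 higher in heart and 11486 higher in fat, or 1320 and 7002 beyond 2-fold. Log2 differences between about 0 and 1 therefore change sign under that scaling, which is said below beside the direction of a gene or list that turned. List counts beyond 2-fold are those under TMM unless said otherwise, and toward heart they can be fewer under library totals. With G-L140 included the counts were 5878 and 6797, and 2440 and 3158 beyond 2-fold.

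The same contrast in the F11 libraries shares no sample with the GFP contrast. Its heart and fat libraries also carry numbers of separate series, so a batch and the tissue cannot be told apart in that contrast either. There 6118 of 15719 genes (38.9%) were higher in heart and 6720 (42.8%) in fat, 81.7% in all, with 2571 (16.4%) and 3148 (20%) beyond 2-fold, 36.4% together. Of the 5718 genes more than 2-fold different with GFP and also tested with F11, 5223 (91.3%) were so with F11 in the same direction and 0 in the opposite one. Across 15419 genes, which are not independent replicates, the log2 differences of both contrasts had a Pearson r of 0.971 and a Spearman rho of 0.98. A test of the interaction, which asks whether the tissue difference itself differs between the vectors, called 2 of 16584 genes (0.0121%), with 1446 at an unadjusted p under 0.05. They were Ypel2, with a log2 difference of 0.02 with GFP and -0.60 with F11 (interaction 0.62, SE 0.08, adjusted p = 0.000898), and Zfp395, at -0.13 and -0.79 (interaction 0.66, SE 0.10, adjusted p = 0.00257). DESeq2 called 53 genes with a positive and 37 with a negative interaction in that test.

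**Figure D2:**
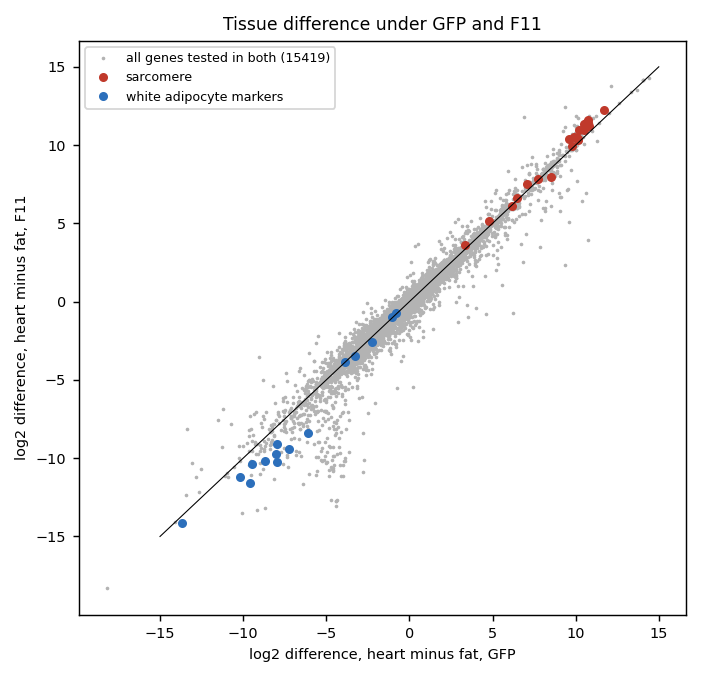
Log2 difference (heart minus fat) of each gene with GFP (x axis) against that with F11 (y axis), for the 15419 genes tested in both; grey points are all genes, red points are sarcomere genes and blue points are white adipocyte markers, and the line marks equal values. The points follow the line (Pearson r = 0.971), with sarcomere genes at the upper right and adipocyte markers at the lower left.

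Sarcomere genes were among the largest differences on the heart side. All 23 members tested were higher in heart with GFP, with a median log2 difference of 10.12 against -0.04 over all genes, and all 23 were more than 2-fold higher in the F11 libraries (median 10.44). With G-L140 included the median fell to 6.17 and all 23 still passed with GFP. The promoters of 2 of these genes are shown because each holds a CArG box, the letters bound by serum response factor, close to the start. The 250 bases before the start come from RefSeq (GRCm38.p6), are written 5′ to 3′ on the strand of the gene, and have the motif in capitals. Actc1 encodes cardiac alpha-actin of the thin filament, and its stretch is chr2:114052876-114053125 on the minus strand. Myl3 encodes the ventricular essential myosin light chain, and its stretch is chr9:110763428-110763677 on the plus strand.
Actc1: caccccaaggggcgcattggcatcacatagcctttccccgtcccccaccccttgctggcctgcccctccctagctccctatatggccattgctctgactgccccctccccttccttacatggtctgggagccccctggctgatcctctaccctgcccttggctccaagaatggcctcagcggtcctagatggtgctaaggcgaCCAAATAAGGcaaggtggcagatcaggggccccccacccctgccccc
Myl3: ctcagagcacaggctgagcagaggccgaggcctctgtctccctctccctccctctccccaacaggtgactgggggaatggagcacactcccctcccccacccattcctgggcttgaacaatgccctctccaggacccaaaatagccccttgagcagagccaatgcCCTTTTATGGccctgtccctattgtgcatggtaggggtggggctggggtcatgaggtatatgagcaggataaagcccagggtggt
The box lies 47 to 38 bases before the start in Actc1 and 85 to 76 bases before it in Myl3. Of 19 sarcomere genes with an entry among 27025 promoters of 300 bases (250 before to 50 after the start), 5 held a CArG box on either strand, namely Myl3, Actc1, Ldb3, Myom1 and Nebl, against 1.81% of all genes. Among 12 white adipocyte markers with an entry 0 held it. CATTCC, letters bound by TEAD factors, was in 9 of the 19 against 16.6%. The MEF2 site was in 3 against 3.7%, and the TATAAA box was in 3 against 15.7%. These motifs were searched on both strands, and their matches may overlap. In all, 13 motifs were searched for, and not all of them are reported here.

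Actc1 ran from 5723 to 8298 CPM (median 6606) in heart and from 2.33 to 11.2 CPM (median 3.21) in fat. Every heart library was above every fat library, and the highest fat value was that of G-L138. With F11 the log2 difference was 11.27 (adjusted p of the 2-fold test 1.17e-16). Myh6, the main adult myosin heavy chain, ran from 32769.6 to 37123 CPM (median 33059) in heart and from 11.3 to 59.5 CPM (median 12.3) in fat, again with G-L138 far above the other fat libraries. Ttn, the giant spring protein titin, ran from 11899.5 to 13195 CPM (median 12653) against 2.02 to 11.5 CPM (median 2.6). Mybpc3, the cardiac myosin-binding protein C, ran from 3228 to 4358 CPM (median 3314) against 1.3 to 5 CPM (median 1.49). The F11 libraries gave log2 differences of 11.62 for Myh6, 12.24 for Ttn and 11.21 for Mybpc3 (adjusted p of the 2-fold test 2.82e-16, 2.6e-15 and 9.57e-17). Tpm1, a tropomyosin that also serves non-muscle cells, ran from 75.1 to 93.8 CPM (median 85.3) in fat and 5952 to 6306 CPM (median 6143) in heart, a smaller log2 difference of 6.18, SE 0.07. The smallest difference of the list was that of Cryab, a small heat shock protein of the Z-disc region, at 3.34, SE 0.09, with 92.2 to 124 CPM (median 108) in fat. Further muscle genes among the largest differences were Actn2, Xirp2 and Trim54, which act at the sarcomere, the oxygen store Mb and the creatine kinase Ckm, with log2 differences from 10.63 (Actn2) to 11.02 (Trim54). With G-L140 included these fell to between 6.24 (Mb) and 6.74 (Xirp2), and with F11 they were 11.05 (Mb) to 11.85 (Xirp2). Where ranges are given for both tissues for a gene that passed the 2-fold test, they did not overlap, here and below, except for Mstn.

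**Figure D3:**
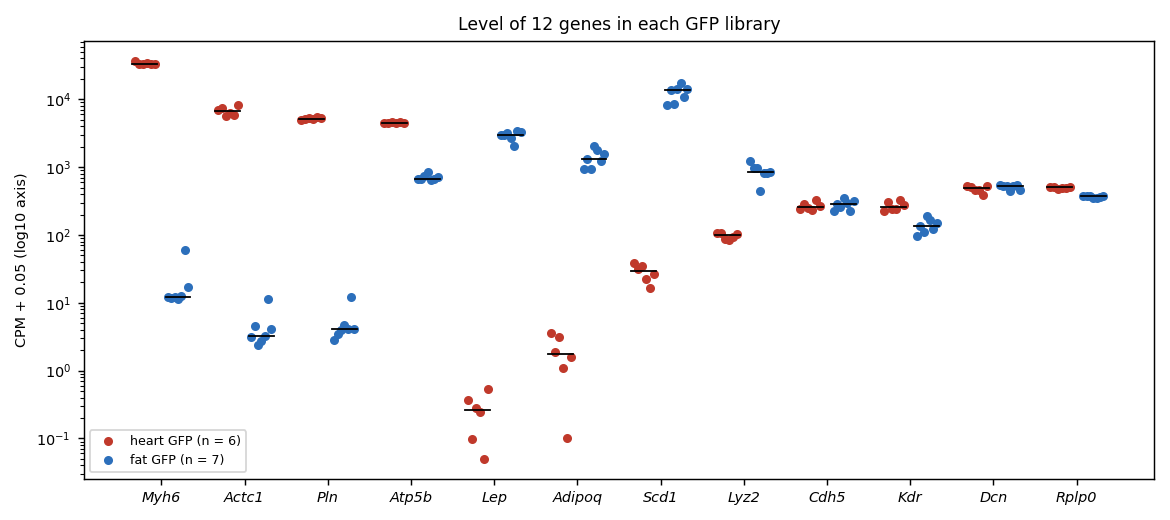
Level of 12 genes in each GFP library, in CPM plus 0.05 on a log10 axis, with 1 point per library; heart libraries are red and fat libraries are blue, and a black bar marks the median of each tissue. From Myh6 to Lyz2 the tissues lie far apart, Cdh5 and Dcn overlap, and Kdr and Rplp0 lie close together without overlap.

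Calcium handling and excitation genes were higher in heart for most members. Of 15 calcium handling genes tested with GFP, 14 were higher in heart, 13 of them more than 2-fold (median 6.45), and with F11 14 of 16 were more than 2-fold higher. Pln, the small protein that restrains the calcium pump, ran from 4927 to 5507 CPM (median 5191) in heart and from 2.75 to 12.1 CPM (median 4.06) in fat (log2 difference with F11 10.43). Atp2a2, the calcium pump of the sarcoplasmic reticulum that all cells carry at some level, ran from 15789 to 18303 CPM (median 17360.2) in heart and still from 150.4 to 205 CPM (median 174) in fat. Asph, whose locus also makes junctin, was the exception in size at 0.35, SE 0.13, and its direction turned under library totals (-0.64). With F11 it was 0.34 (edgeR adjusted p = 0.0118). Of 18 ion channel and gap junction genes 17 were more than 2-fold higher with GFP and also with F11. Gja1, the gap junction protein connexin 43, ran from 357 to 435 CPM (median 389.8) in heart. In fat it ran from 46.9 to 159.8 CPM (median 52.3), with the highest value in G-L138. That library held the cardiomyocyte markers at 0.0916 to 0.309% of their heart level, and the cause of its Gja1 value was not tested. The log2 difference of Gja1 was 2.45, SE 0.28 with GFP and 2.26 with F11 (adjusted p of the 2-fold test 0.000273).

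All 21 cardiac transcription factors tested were more than 2-fold higher in heart with GFP (median 4.36), and 20 of 21 with F11. Nkx2-5, the homeobox factor that specifies cardiac muscle, ran from 69.2 to 81.4 CPM (median 73) in heart, with 9023 counts there and 2 counts in the 7 fat libraries together. Its log2 difference was 12.13, and 8.27 with G-L140 included, so its size depends on that library. With F11 it was 13.76 (adjusted p of the 2-fold test 7.74e-14). Among other genes with large differences, Lrrc14b ran from 85.9 to 97.8 CPM (median 91.3) in heart against 6 counts over the fat libraries, with log2 differences of 11.21, 9.63 with G-L140 and 11.85 with F11 (adjusted p of the 2-fold test 1.37e-15). Chrm2, the muscarinic receptor that slows the heart, ran from 141.03 to 195 CPM (median 169) in heart and from 0 to 0.317 CPM (median 0.0388) in fat (log2 difference with F11 10.29). The factors Tead1, Mef2a and Mef2d, which other tissues use too, had smaller differences of 1.57, 1.77 and 1.75 (SE 0.09, 0.08 and 0.06).

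Cardiac hormones and stress genes were higher in heart for 13 of 15 members, 12 more than 2-fold (median 7.07), and with F11 for 13 of 15, all 13 more than 2-fold. Fhl2, a LIM protein of cardiac muscle, ran from 1137 to 1379.6 CPM (median 1238) in heart and from 2.6 to 6.46 CPM (median 4.38) in fat. Nppa, the atrial natriuretic peptide, ran from 49.9 to 2219 CPM (median 803) in heart. It was spread over heart libraries far more widely than the sarcomere genes, with L1 highest. Acta1, the skeletal alpha-actin that is near-identical to Actc1 and may share its reads, ran from 110.1 to 592 CPM (median 326) in heart and from 8.01 to 16.3 CPM (median 11.7) in fat. Of the 2 members higher in fat with GFP, Mstn, the muscle growth inhibitor myostatin, ran from 0.146 to 0.693 CPM (median 0.577) in heart and from 0.487 to 4.99 CPM (median 3.61) in fat, and the tissues overlapped (log2 difference -2.58, SE 0.54, adjusted p of edgeR's 2-fold test 0.00471). With F11 its difference was -1.10 and did not pass (adjusted p of the 2-fold test 0.53).

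Mitochondrial energy genes were higher in heart as whole groups. All 36 tested subunits of respiratory complex I were higher, 35 of them more than 2-fold (median log2 difference 2.86), and all 37 nuclear subunits of complexes II to V were more than 2-fold higher (median 2.85). All 18 citrate cycle genes were more than 2-fold higher (median 2.49). In the F11 libraries the medians were 2.78, 2.82 and 2.57, and every member of the 3 lists was more than 2-fold higher. Under library totals the medians were 1.87, 1.87 and 1.5, and 35 of 36, 37 of 37 and 18 of 18 were still higher in heart. Fewer passed the 2-fold test with that scaling, at 28 of 36, 35 of 37 and 15 of 18. In bulk tissue, more mitochondria per cell, more cells of a type that is rich in them and more RNA per cell cannot be told apart.

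Atp5b, the catalytic beta subunit of ATP synthase, ran from 4401 to 4573 CPM (median 4465) in heart and from 645 to 856 CPM (median 676) in fat (log2 difference 2.66, SE 0.07). Ndufs1, the largest core subunit of complex I, ran from 709.7 to 783 CPM (median 751) and from 72.5 to 89.2 CPM (median 75.7) (3.28, SE 0.06). Sdha, the flavoprotein of succinate dehydrogenase that belongs to both complex II and the citrate cycle, ran from 1512 to 1649 CPM (median 1542) and from 222 to 306 CPM (median 242) (2.65, SE 0.07). The highest fat library for each of these was G-L136. Ogdh, the oxoglutarate dehydrogenase of the citrate cycle, was 3.58 higher on the log2 scale (SE 0.06). The 13 protein genes of the mitochondrial genome were all more than 2-fold higher, with a median of 3.87, about 1 log2 unit above that of the nuclear subunits. mt-Co1, a core subunit of complex IV, ran from 139447 to 166126 CPM (median 159584) in heart and from 9115 to 13708 CPM (median 10645) in fat. mt-Nd4 and mt-Cytb differed by 3.50 and 3.62 (SE 0.11 and 0.14). The listed pseudogenes Gm28661, Gm28437 and Gm29216, which are nuclear copies of mitochondrial sequence and share reads with it, differed by 3.94, 3.96 and 2.33.

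Fatty acid oxidation was higher in heart for 23 of 26 genes, all 23 more than 2-fold (median 2.50), and for 24 of 26 with F11. With library totals 23 were higher in heart and 3 in fat, 17 and 1 of them beyond 2-fold (median 1.51). Hadha and Hadhb, the subunits of the trifunctional protein, ran from 2204 to 2403 CPM (median 2264) and from 2106 to 2323 CPM (median 2208) in heart. In fat they ran from 174 to 243 CPM (median 199) and from 220.5 to 250.5 CPM (median 242). Their log2 differences were 3.46, SE 0.08 and 3.22, SE 0.05. Acsl1, which activates fatty acids for both oxidation and storage, did not pass the test. It ran from 1238 to 1385 CPM (median 1352) in heart and from 943 to 1611 CPM (median 1193) in fat, and the tissues overlapped (log2 difference 0.13, SE 0.10, adjusted p = 0.255, and -0.86 under library totals). Cpt1a, the liver-type gatekeeper of mitochondrial fatty acid entry, was lower in heart (-0.75, SE 0.11, adjusted p = 1.32e-05), while the muscle type Cpt1b was 7.51 higher. Genes for the use of ketone bodies and branched-chain amino acids were higher in heart for 15 of 17, 6 of them more than 2-fold (median 0.90), but under library totals 6 were higher in heart and 8 in fat (median -0.09). Oxct1, which starts the use of ketone bodies in tissues other than liver, ran from 990.3 to 1173 CPM (median 1065) in heart and from 257 to 331 CPM (median 291) in fat (1.87, SE 0.06). Bckdhb, a subunit of the branched-chain keto acid dehydrogenase, was -0.37 (SE 0.13, adjusted p = 0.0193), the 1 member that was higher in fat.

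Glycolytic genes were higher in heart for 14 of 19 and higher in fat for 3 (median 1.52), with 12 and 2 beyond 2-fold. With F11, 17 were higher in heart and 2 in fat, 13 and 1 of them beyond 2-fold (median 1.77). Scaled by library totals, 12 were higher in heart and 6 in fat with GFP, 6 and 3 beyond 2-fold (median 0.53). The members were split between isoforms of one enzyme. Pgam2 and Eno3, the muscle phosphoglycerate mutase and enolase, were 9.44 and 7.37 (SE 0.14 and 0.15). The broadly expressed Pgam1 and Eno1 were -1.44 and -1.43 (SE 0.06 and 0.07), more than 2-fold higher in fat with GFP. Gapdh, often used as a reference gene, ran from 1927 to 2199 CPM (median 2010.3) in heart and from 513 to 672 CPM (median 597) in fat, a log2 difference of 1.77, SE 0.07. Pkm ran from 1061 to 1156 CPM (median 1095) and from 234 to 399 CPM (median 299) (1.83, SE 0.11). Of 12 genes of creatine and adenylate phosphate transfer, 8 were higher in heart and 4 in fat, 6 and 3 beyond 2-fold, in both the GFP and the F11 libraries (6 and 6 under library totals with GFP). Slc25a4, the muscle carrier that exchanges ADP and ATP across the inner mitochondrial membrane, ran from 3586 to 3967 CPM (median 3779) in heart and from 107 to 149 CPM (median 115) in fat. Slc6a8, the creatine transporter, was 2.23 higher in heart (SE 0.22), whereas Gamt, the last enzyme of creatine synthesis, was -2.58 (SE 0.15).

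Pairs of related genes were compared within each library, which needs no scaling between libraries. For 23 pairs chosen as heart or muscle type over the other type, the log2 ratio of their counts (plus 0.5) did not overlap between the tissues, and it was higher in heart for 22. The background for values that do not overlap is 65.9% of single genes, and none was computed for ratios of pairs chosen this way. Since the first genes were chosen as heart or muscle types, leaving out G-L140 bears on these ratios, which are a description. They were not computed with G-L140 or in the F11 libraries. Fabp3 over Fabp4, the heart and adipocyte forms of the fatty acid binding protein, had a mean log2 ratio of 2.83 ± 0.24 (SD, n = 6) in heart and -11.73 ± 0.86 (SD, n = 7) in fat. Per kilobase of exon, Fabp3 was 38.7 times Fabp4 in heart and 0.0016 times in fat. Ckm over Ckb, the muscle and brain creatine kinases, had ratios of 5.62 ± 0.08 and -6.42 ± 1.07. Pygm over Pygl, the muscle and liver glycogen phosphorylases, had 6.92 ± 0.20 and -5.33 ± 0.28. For the fatty acid sensing receptors Ppara over Pparg the ratio was 2.24 ± 0.17 in heart and -5.18 ± 0.51 in fat. Acacb, the carboxylase whose product blocks fatty acid entry into mitochondria, exceeded the lipogenic Acaca by 5.08 ± 0.09 in heart and fell short of it in fat at -0.90 ± 0.20. Cox6a2 over Cox6a1, Cox7a1 over Cox7a2 and Cox8b over Cox8a, muscle over general forms of complex IV subunits, shifted by 11.03, 6.20 and 7.59 between the tissues. Ldhb over Ldha shifted by 5.53. Ldha itself ran from 451 to 578 CPM (median 469) in heart and from 407 to 552 CPM (median 507) in fat and did not pass (log2 difference -0.03, adjusted p = 0.68, and lower in heart by more under library totals).

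The smallest shifts among the pairs higher in heart were those of hexokinase, oestrogen-related receptor and glucose transporter genes. Hk2 over Hk1 moved by 0.64, Esrrg over Esrra by 1.84 and Slc2a4 over Slc2a1 by 2.37. Slc2a4, the insulin-responsive transporter GLUT4, was high in heart at 309.7 to 342 CPM (median 314) and also present in fat at 30.8 to 102 CPM (median 53.9), while Slc2a1 did not pass (0.15, SE 0.09, adjusted p = 0.144, and -0.84 under library totals).

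**Figure D4:**
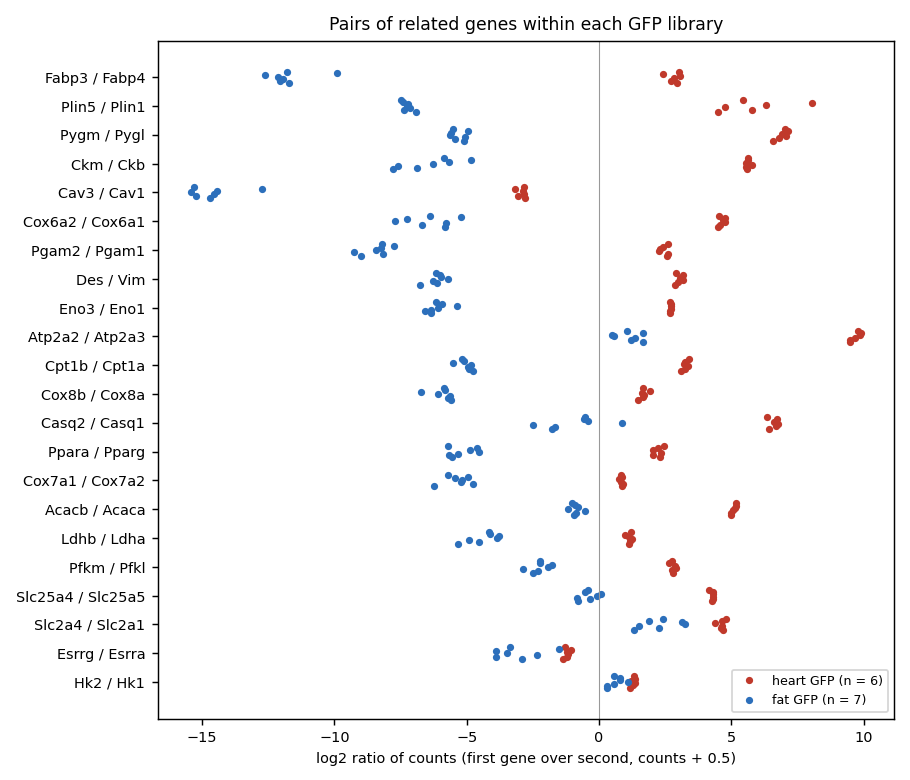
Log2 ratio of the counts of 2 related genes (counts plus 0.5) within each GFP library, for the 22 of 23 pairs whose ratio was higher in heart, named as first over second gene; heart libraries are red and fat libraries are blue, with 1 point per library. The tissues do not overlap for any pair drawn, and Fabp3 over Fabp4 shows the widest gap.

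Among the 12 largest differences on the fat side were those of 3 adipocyte genes, Lep, Cidec and Adipoq. All 15 white adipocyte markers were higher in fat, 13 of them more than 2-fold (median -7.94), and the F11 libraries gave the same counts (median -9.44). The promoters of Lep and Plin1 are shown because each holds TTGCNNAA, a core that C/EBP factors bind, in the 250 bases before its start. Lep encodes the satiety hormone leptin, and its stretch is chr6:29059971-29060220 on the plus strand. Plin1 encodes perilipin 1, the coat protein of the adipocyte lipid droplet, and its stretch is chr7:79732777-79733026 on the minus strand. The capitals mark each match.
Lep: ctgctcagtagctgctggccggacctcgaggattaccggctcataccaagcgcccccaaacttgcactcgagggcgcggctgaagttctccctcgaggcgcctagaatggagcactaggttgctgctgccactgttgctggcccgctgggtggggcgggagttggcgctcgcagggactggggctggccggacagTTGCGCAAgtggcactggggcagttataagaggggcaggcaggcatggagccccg
Plin1: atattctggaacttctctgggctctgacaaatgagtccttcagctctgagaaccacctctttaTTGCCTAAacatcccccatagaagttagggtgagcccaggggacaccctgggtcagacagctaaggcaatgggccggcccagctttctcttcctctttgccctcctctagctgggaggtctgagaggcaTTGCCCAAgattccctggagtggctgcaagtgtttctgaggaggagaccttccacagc
The match lies 55 to 48 bases before the start in Lep. Plin1 has one 187 to 180 and another 58 to 51 bases before the start. A rarer C/EBP consensus was also searched for. It was in 0 of the 12 white adipocyte markers with an entry, 0 of 19 sarcomere genes and 0.0703% of all genes. At that share the lists are too short to tell a difference, and binding to the core shown was not tested. Among the 12 white adipocyte markers with an entry, 3 held TTGCNNAA on either strand (Plin1, Cidec and Lep) against 12.2% of all genes and 1 of 19 sarcomere genes.

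Lep ran from 2043 to 3385 CPM (median 2962) in fat and from 0 to 0.488 CPM (median 0.213) in heart (log2 difference -13.70, SE 0.34, adjusted p of the 2-fold test 1.62e-13). Adipoq, the adipokine adiponectin, ran from 929 to 2061 CPM (median 1309) in fat and from 0.0508 to 3.53 CPM (median 1.7) in heart (-9.56, SE 0.51). In G-L140, which was left out, Lep was at 634 CPM, below its range in the fat libraries kept. Adipoq was at 2213 CPM there, above its own range. Plin1 ran from 716 to 1156 CPM (median 872) and from 0.559 to 6.98 CPM (median 3.11), and Cidec, which lets lipid droplets grow by fusion, from 1450.3 to 2223 CPM (median 1902) and from 0.102 to 2.81 CPM (median 1.46). In heart L1 was the highest library for Adipoq, Plin1 and Cidec. Cd36 and Pnpla2, the fatty acid transporter and the first lipase of lipolysis, were the 2 markers that did not pass the 2-fold test, at -0.79 and -1.02 (SE 0.07 and 0.11). Both work in heart muscle too, where Cd36 ran from 2123 to 2602 CPM (median 2381) and Pnpla2 from 382 to 421 CPM (median 414). Car3, a carbonic anhydrase that is abundant in adipocytes, ran from 2675 to 10484 CPM (median 4729.7) in fat and from 0.61 to 23.7 CPM (median 11) in heart. Klf10, a transcription factor induced by TGF-beta, ran from 3579 to 4203 CPM (median 3787) and from 199.9 to 265 CPM (median 228) (-4.08, SE 0.09).

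Several genes were seen in fat and hardly at all in heart. Tph2, the neuronal form of tryptophan hydroxylase, ran from 6.62 to 108 CPM (median 58.1) in fat and had 0 counts in the heart libraries together, so it was at least 2511.95-fold higher when heart is set to a floor of 3 counts over the group. Gpr50, a receptor related to the melatonin receptors, ran from 10.5 to 61.3 CPM (median 44.5) in fat, again with 0 counts in heart (at least 1614-fold higher). Both genes were thus clearly measured in every fat library that was kept. In G-L140, which was left out, Tph2 was at 1.26 CPM and Gpr50 at 0.455 CPM, below those ranges, and the cause was not tested. Ubd, a ubiquitin-like protein, ran from 27.5 to 156 CPM (median 112) in fat and had 5 counts in heart, a 2549.6-fold ratio by counts (exact 95% interval 1092 to 7853). Lctl, a klotho relative, ran from 65.9 to 141.4 CPM (median 110.0) in fat, with 8 counts in heart. Mup10 and Ugt1a6b belong to families of near-identical genes whose reads the counting may have split, so their values are uncertain.

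Of 16 adipokines and secreted fat factors 13 were higher in fat, 12 more than 2-fold (median -3.54), and 2 were higher in heart. Hp, the haemoglobin-binding protein haptoglobin that fat secretes in obesity, ran from 1524 to 4886 CPM (median 3069) in fat and from 0.559 to 8.06 CPM (median 4.23) in heart. Apoe ran from 991 to 2796 CPM (median 1196) and from 205 to 398 CPM (median 288) (-2.30, SE 0.27), with G-L136 highest. The exceptions were Vegfa, the vascular growth factor, at 1.51, SE 0.22, and Nampt, the NAD salvage enzyme also known as visfatin, at 1.88, SE 0.09. Vegfa ran from 388 to 449 CPM (median 408) in heart and from 77.6 to 216 CPM (median 136.1) in fat. With F11, Vegfa was 1.11 and did not pass the 2-fold test (adjusted p = 0.346).

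Lipid synthesis was higher in fat. Of 21 genes of fatty acid and triglyceride synthesis 18 were higher in fat, 16 more than 2-fold (median -2.34), and the counts were the same with F11. Scd1, the desaturase that makes oleate, ran from 8175 to 17199 CPM (median 13827) in fat and from 16.7 to 39 CPM (median 28.9) in heart (-8.77, SE 0.31). Dgat2, which completes triglyceride, ran from 1169.8 to 1816 CPM (median 1513) and from 271 to 325 CPM (median 290.3) (-2.34, SE 0.10). Me1, a source of NADPH, differed less (-1.13, SE 0.12, adjusted p = 7.02e-07, and 0.125 in the 2-fold test). The pair more than 2-fold higher in heart were Acacb at 3.31, SE 0.10 and Gpam, the mitochondrial enzyme that starts triglyceride synthesis, at 1.80, SE 0.10. Gpam ran from 503 to 572 CPM (median 531) in heart and from 115 to 198 CPM (median 146.4) in fat. Cholesterol synthesis and uptake was higher in fat for 13 of 15 genes, 10 more than 2-fold (median -1.67). Hmgcs1, the synthase ahead of HMG-CoA reductase, ran from 258 to 469 CPM (median 375) in fat and from 43 to 51.4 CPM (median 45.9) in heart. Srebf2, the factor that induces this pathway, did not pass, at -0.05, SE 0.09 (adjusted p = 0.631). Fdft1, squalene synthase, was the 1 member higher in heart at 0.49, SE 0.14, a direction that turned under library totals and that did not pass with F11 (0.14).

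Lipid droplet and lipolysis genes were split, with 14 of 20 higher in fat and 6 in heart, 11 and 5 beyond 2-fold, in both GFP and F11 libraries. Plin4 and Mgll, a droplet coat protein and the monoglyceride lipase, were -2.81 and -2.57 (SE 0.13 and 0.10). Plin5, the perilipin of oxidative tissues that tethers droplets to mitochondria, ran from 144.1 to 159.8 CPM (median 150.2) in heart and from 4.6 to 7.58 CPM (median 5.85) in fat (4.69, SE 0.10). Fitm1, a muscle droplet protein, ran from 61 to 68.4 CPM (median 66.6) in heart and from 0.0388 to 1.86 CPM (median 0.119) in fat, with G-L136 the highest fat library. Cidea ran from 25.7 to 28.7 CPM (median 27) in heart and from 0.595 to 2.54 CPM (median 1.03) in fat. Of 7 brown adipocyte markers tested, 3 were more than 2-fold higher in heart, namely Cidea, Cox8b and the potassium channel Kcnk3, and 3 in fat, while Ucp1, the defining uncoupling protein, did not pass the filter on low counts. Cox8b ran from 227 to 273 CPM (median 245) in heart and from 1.1 to 1.91 CPM (median 1.66) in fat, and Kcnk3 from 378 to 414 CPM (median 399) and from 28.9 to 34.7 CPM (median 31.2). Lpl, lipoprotein lipase, differed little for a gene this abundant, at 4315 to 5673 CPM (median 5004) in heart and 7658 to 10054 CPM (median 8968) in fat (-0.85, SE 0.09).

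**Figure D5:**
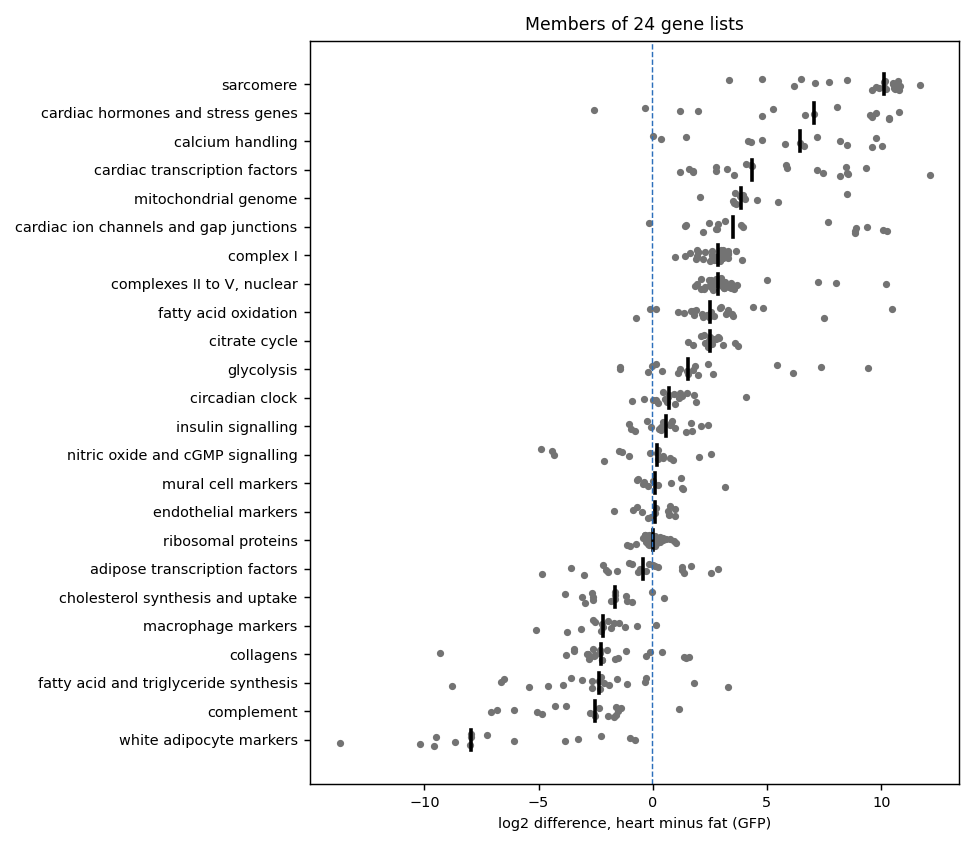
Log2 difference (heart minus fat, GFP libraries) of each tested member of 24 gene lists, with 1 point per gene; black bars are list medians, and the dashed line is the median of all 15576 genes (-0.04). Sarcomere genes lie farthest to the right (median 10.12), and white adipocyte markers lie farthest to the left (median -7.94).

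Adipose transcription factors did not all lie on the fat side. Of 22 tested 11 were higher in fat and 7 in heart, with 7 and 4 beyond 2-fold (median -0.41). Pparg, the master regulator of adipocytes, ran from 76.7 to 108 CPM (median 91) in fat and from 8.64 to 13.3 CPM (median 11.4) in heart (-3.02, SE 0.12). Srebf1, which drives lipid synthesis, was -1.56 (SE 0.09). Cebpb, an early adipogenic factor that many cells induce, ran from 54 to 88.8 CPM (median 70.3) in heart and from 9.4 to 16.2 CPM (median 12.1) in fat. It was 2.53 with GFP and 3.15 with F11, so heart libraries were the higher ones with both vectors. Rxrg and Stat5b were also more than 2-fold higher in heart, at 2.87 and 1.28 (SE 0.09 and 0.05), as was Tcf21 at 1.67 (SE 0.09). Rxra, a partner of the receptor Pparg, was -0.54 (SE 0.07).

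Hox genes, which record position along the body axis, were on the fat side alone among those tested. All 23 of 39 that passed the filter on low counts were more than 2-fold higher in fat (median -3.56, and -3.56 with the 1 gene at 0 in heart set to its bound), and 24 of 24 with F11. The filter passes a gene through its higher tissue alone, so this count says little by itself. Summed over all 39, Hox counts were 7.61 to 14.2 CPM in heart and 122.1 to 221.2 CPM in fat, with 13 members at 0 in heart and 5 at 0 in fat. Hoxc8 ran from 28.2 to 70.9 CPM (median 41.5) in fat and from 0.0938 to 0.248 CPM (median 0.133) in heart, and Hoxd8 from 10.3 to 20.5 CPM (median 15.9) and from 0.589 to 1.97 CPM (median 1.34). Hoxb3, among the most rostral members named, ran from 6.24 to 12.3 CPM (median 9.3) and from 1.86 to 2.64 CPM (median 1.94).

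Matrix genes were mostly higher in fat. Of 24 collagens 17 were more than 2-fold higher in fat and 3 in heart (median -2.26). Col3a1, a fibrillar collagen, ran from 981 to 3348 CPM (median 2037) in fat and from 237 to 346 CPM (median 312) in heart (-2.79, SE 0.28). Sparc, a collagen-binding matrix protein, ran from 2845 to 4240.2 CPM (median 3582) and from 253 to 389.8 CPM (median 328) (-3.47, SE 0.13). Col4a1 and Col4a2, the common chains of basement membrane, were -1.67 and -1.53 (SE 0.14 and 0.13). Their relatives Col4a3 and Col4a4 were higher in heart at 1.45 and 1.57 (SE 0.25 and 0.23), at low levels of 7.03 to 10.3 CPM (median 8.31) and 15.8 to 24.1 CPM (median 20) in heart. Neither passed the 2-fold test with F11 (adjusted p = 0.355 and 0.0651). Of 24 other matrix and basement membrane genes 19 were higher in fat and 2 in heart, with 10 and 2 beyond 2-fold (median -0.91). The heart genes were the laminin chains Lama2 at 1.89, SE 0.11 and Lamb2 at 1.68, SE 0.08, which anchor muscle fibres. Dcn, the small proteoglycan decorin, did not pass, at 391 to 524 CPM (median 489) in heart and 437 to 547 CPM (median 525) in fat. Fibroblast markers as a list were higher in fat for 10 of 14 and in heart for 3, with 6 and 1 beyond 2-fold (median -1.12).

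Most immune genes were higher in fat. Of 15 macrophage markers 14 were higher in fat, 13 more than 2-fold (median -2.16), and all 12 lipid-associated macrophage markers were higher, 10 more than 2-fold (median -4.73). Lpl and Fabp5 of that list are also adipocyte genes. Fewer cells of a type in heart and less RNA per cell cannot be told apart here. Lyz2, the macrophage lysozyme, ran from 450.0 to 1238 CPM (median 843) in fat and from 85.1 to 108 CPM (median 98.8) in heart (-3.16, SE 0.19). Csf1r and Mrc1, the growth factor receptor and the mannose receptor of macrophages, were -2.25 and -2.16 (SE 0.20 and 0.20). Lipa, the lysosomal lipase of lipid-laden macrophages, ran from 140.3 to 601 CPM (median 316) in fat and from 28.3 to 36.6 CPM (median 30.6) in heart. G-L133 was the highest fat library for all 4 of these, and the macrophage sum ran from 1260 CPM in G-L136 to 3402 CPM in G-L133 against 347.8 to 457.8 CPM in heart.

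Genes of MHC class II antigen presentation were higher in fat for 11 of 12, all more than 2-fold (median -2.67). Cd74, the invariant chain, ran from 494 to 861 CPM (median 665) in fat and from 81.4 to 134.1 CPM (median 109) in heart (-2.71, SE 0.16). Complement genes were more than 2-fold higher in fat for 17 of 18 (median -2.55), among them the central component C3 at -2.77, SE 0.13. Chemokines and cytokines were higher in fat for 12 of 17 and in heart for 3, with 11 and 2 beyond 2-fold. Ccl6 ran from 143.02 to 343 CPM (median 249) in fat and from 7.52 to 11 CPM (median 10.4) in heart, while Cxcl14 and the endothelial chemokine Cx3cl1 were higher in heart at 1.91 and 1.59 (SE 0.25 and 0.19). Ighm, the heavy chain of IgM, ran from 301 to 989 CPM (median 596) in fat and from 6.57 to 9.27 CPM (median 7.61) in heart (-6.25, SE 0.27). Igkc and Jchain, of antibody-secreting cells, had maxima of 171 and 50.3 CPM in G-L134 and medians of 13.4 and 4.15 CPM over fat. Il7r, an interleukin receptor of lymphocytes, was -6.48 (SE 0.46), whereas Cd4 did not pass at 0.05 (SE 0.41, adjusted p = 0.912, and a log2 difference of -0.94 under library totals). Cell cycle genes were higher in fat for 20 of 21, 18 more than 2-fold (median -2.54). Mki67, present in cycling cells, ran from 18.2 to 56.7 CPM (median 36.7) in fat and from 6 to 11.1 CPM (median 6.89) in heart, and Top2a from 13.9 to 41.1 CPM (median 25.5) and from 2.44 to 5.66 CPM (median 3.5), with G-L133 the highest fat library for both.

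Vascular genes were close between the tissues. Of 14 endothelial markers 6 were higher in heart and 5 in fat, with 0 and 1 beyond 2-fold (median 0.10, and -0.89 under library totals, where 0 and 12 were called). Cdh5, the cadherin of endothelial junctions, ran from 234 to 322 CPM (median 256) in heart and from 224 to 351 CPM (median 290.1) in fat and did not pass (-0.08, SE 0.11, adjusted p = 0.518). Kdr, the main VEGF receptor, was higher in heart (0.98, SE 0.15, adjusted p = 2.11e-05) and at -0.01 under library totals. Cldn5, a tight junction protein, was the 1 member more than 2-fold higher in fat (-1.71, SE 0.20). Mural cell markers were higher in heart for 5 of 12 and in fat for 4, with 3 and 0 beyond 2-fold (median 0.10). Under library totals 3 were higher in heart and 7 in fat (median -0.88). Without L8, 1 was beyond 2-fold in heart, and without L1 or G-L133, 2 were higher in fat. With G-L140 included or with upper-quartile scaling factors, 1 was likewise beyond 2-fold in heart. With F11, 4 were higher in heart and 3 in fat, 1 and 0 beyond 2-fold (median -0.10). Abcc9, the regulatory subunit of a potassium channel that heart muscle shares with pericytes, ran from 442 to 568 CPM (median 478) in heart and from 40.2 to 70.4 CPM (median 49.2) in fat (3.17, SE 0.13). Acta2, smooth muscle actin, was -0.67 (SE 0.17, adjusted p = 0.00266).

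Ribosomal protein genes were near 0 in their median, and the signalling and secretion lists differed more, in directions that for 2 of them depend on the scaling. Ribosomal protein genes were higher in heart for 11 of 28 and in fat for 12, with 0 and 0 beyond 2-fold by the edgeR 2-fold test (median 0.03). Under library totals the median was -0.95, with 0 higher in heart and 26 in fat, 0 and 12 beyond 2-fold. Rplp0 ran from 475 to 514 CPM (median 504) in heart and from 346 to 380.1 CPM (median 369) in fat (0.45, SE 0.04), and its direction turned under library totals. Insulin signalling genes were higher in heart for 13 of 18 and in fat for 4, with 5 and 0 beyond 2-fold (median 0.58). Under library totals the tally turned to 5 higher in heart and 11 in fat, 2 and 5 beyond 2-fold (median -0.40). Insr, the insulin receptor, ran from 243 to 305 CPM (median 260.3) in heart and from 82.1 to 119 CPM (median 94.5) in fat (1.44, SE 0.09). Foxo1, the factor that insulin restrains, was higher in fat at -1.03, SE 0.15, and Akt2 did not pass at -0.10 (adjusted p = 0.159). Clock genes were higher in heart for 15 of 19 and in fat for 2 (median 0.71), and with F11 for 12 and 0, while time of day was not given in the labels. Under library totals this tally turned too, to 4 higher in heart and 8 in fat (median -0.28). Nr1d2 was 1.14, SE 0.11, and Per2, which was highest in G-L137 and G-L136 among fat libraries, was -0.89, SE 0.24 with GFP and 0.24 with F11. Genes of the unfolded protein response and secretion were higher in fat for 14 of 20 and in heart for 3, with 8 and 2 beyond 2-fold (median -0.86). Calr, a folding chaperone, was -0.85 (SE 0.11), and Hspa5 did not pass at -0.09 (adjusted p = 0.399). Herpud1 and Atf6 were the pair more than 2-fold higher in heart, at 2.37, SE 0.13 and 1.71, SE 0.08.

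Nitric oxide and cGMP genes were examined because every mouse received l-NAME. Of 17 tested 9 were higher in heart and 7 in fat, with 2 and 6 beyond 2-fold (median 0.18). The count higher in heart was not stable, at 2 against 14 in fat under library totals (median -0.81), 6 with upper-quartile factors or with G-L140, and 5 against 7 with F11 (median -0.07). Npr3, the clearance receptor for natriuretic peptides, ran from 1161 to 1384 CPM (median 1281) in fat and from 23.9 to 116 CPM (median 62.6) in heart (-4.34, SE 0.29). The peptide Nppa lay on the other side, in heart. Pde3b, the phosphodiesterase through which insulin restrains lipolysis, ran from 156 to 257 CPM (median 176) in fat and from 6.61 to 11 CPM (median 9.14) in heart, and Pde2a was -1.34 (SE 0.07). Npr2, the receptor of C-type natriuretic peptide, was 0.46, SE 0.14 and turned under library totals.

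Coagulation and fibrinolysis genes were higher in fat for 18 of 23 and in heart for 2, with 15 and 1 beyond 2-fold (median -3.05). Liver-made factors are part of this list, and hepatocyte transcripts differed between libraries as well. The summed level of 10 hepatocyte markers was 140.97 to 5315 CPM in fat, with G-L136 highest and a median of 493.8 CPM. In heart the sum was 10.2 to 285.6 CPM, with L2 highest, and none of the markers was at 0 in either tissue. All 10 hepatocyte markers were higher in fat with GFP, 7 of them more than 2-fold (median -4.45). Without G-L136 the hepatocyte median was -2.85, with 6 higher in fat and 2 beyond 2-fold, and without L2 it was -7.38. In the F11 libraries all 10 were more than 2-fold higher in fat (median -9.03). Without G-L136, 12 of 22 coagulation genes were beyond 2-fold in fat, with a median of -2.82. Anxa2, a surface protein that binds plasminogen activator, ran from 951 to 1327 CPM (median 1161) in fat and from 49.6 to 63.8 CPM (median 55.5) in heart (-4.36, SE 0.10) with G-L133, not G-L136, highest. F13a1, the transglutaminase subunit that macrophages make, was -1.47 (SE 0.11). Tfpi, the tissue factor inhibitor of endothelium, was the 1 member more than 2-fold higher in heart, at 56.6 to 75.9 CPM (median 64.6) against 16.2 to 20.8 CPM (median 17.7) in fat. Thbd, endothelial thrombomodulin, ran from 64.8 to 99.7 CPM (median 76.5) in heart and from 45.4 to 129 CPM (median 77.1) in fat and did not pass (adjusted p = 0.924).

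Heart libraries were more alike than fat libraries. The square root of the common dispersion, the typical relative spread between libraries beyond counting, was 0.101 in heart and 0.239 in fat, and 0.195 in fat without G-L136. Among 7705 genes at a mean of 10 CPM or more in both tissues, the median coefficient of variation was 5.86% in heart and 9.03% in fat, and 5848 varied more in fat. Single libraries held the maxima of the most variable genes. In heart Alb ran from 0.0488 to 171 CPM (median 0.893), with the maximum in L2, and Bmp10, an atrial gene, from 0.516 to 791 CPM (median 178), with L1 highest. Summed atrial markers were 80.0 CPM in L8 and 4777 CPM in L1, so the heart libraries differ in how much atrial transcript they hold. Hbb-bs and Alas2, of red blood cells, were highest in L8 at 2529 and 103 CPM against medians of 479 and 18.6 CPM. The alpha-globin copies Hba-a1 and Hba-a2, near-identical in sequence, were -0.35 and 2.02, values that are uncertain because reads of the copies are shared. In fat the liver genes Apoa4, Cyp3a11, Cyp2a5, Mup20, Hpx, Ambp and Apoc3 were all highest in G-L136. Mup20 ran from 2.93 to 703 CPM (median 17.9) and Hpx from 2.6 to 337 CPM (median 9.01). Dcdc2a ran from 0.0388 to 84.1 CPM (median 0.162) in fat, with the maximum in G-L138, the library with the most cardiomyocyte transcripts. In heart it stayed at or below 0.172 CPM, and it did not pass the filter on low counts.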

How the data were processed

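The data are estimated counts per gene that the authors deposited in 1 table, made with kallisto 0.46 on GRCm38.p6 per the submitters' processing notes. Of all values in these libraries, 30.6% were not whole, and they were rounded. GENCODE names were found for 35935 of 36558 gene IDs. Genes were filtered by filterByExpr, scaled by TMM and tested with edgeR 4.0.16 in R 4.3.3 (glmQLFit with robust estimation, glmQLFTest, and glmTreat for differences over 2-fold). An adjusted p (Benjamini-Hochberg over all genes tested) under 0.05 was a call. Intervals and floors cover counting error only. On simulated data with the depth of the GFP comparison (15410 genes), 70% of 2-fold, 100% of 4-fold and 14% of 1.5-fold changes were recovered, and the 2-fold test passed 88% of 4-fold and 0% of 2-fold changes. Of 153 calls there, 11 were false. The simulated spread was set wider than the 0.101 in heart and 0.239 in fat measured here, and 50 genes changed at each fold. Most real genes differed, so these shares do not carry over to the comparison of the tissues. No pair of libraries of a tissue agreed within sampling noise (chi-square per gene at least 3.47). DESeq2 1.42.0, limma 3.58.1 and other scalings, filters and libraries were alternatives. Genes were named by a rule: the 12 largest differences each way, the 10 most abundant genes of each tissue, 3 abundant members of each list with up to 2 against its direction, the 23 pairs and the 8 most variable genes of each tissue. Genes named beyond that rule were chosen after their values were seen. The members and the 51 lists were chosen with earlier results of these data known. Some genes and 1 pair that the rule takes are not reported here.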

Additional observations from a re-analysis of the deposited data

Results flagged for a closer look

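The level of 1 library lay far from the others of its tissue for 66 of 354 groups of libraries examined, 26 in heart and 40 in fat. The measure is the gap to the nearest library over the whole range of the tissue, set against Dixon's 95% critical value. The genes examined include the most variable ones of each tissue, which the naming rule takes, so such groups were partly chosen into the set. The rate of about 1 in 20 groups by chance is for genes not chosen by their spread and does not carry over. The genes are also not independent of each other.

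In fat, G-L136 was the highest library for Acaca at 193 CPM, Alb at 2469.8 CPM, Ambp at 122 CPM, Apoa4 at 75.9 CPM, Apoc3 at 76.7 CPM, Cidea at 2.54 CPM, Cox7a2 at 65.9 CPM and Cyp2a5 at 77.3 CPM, many of them liver or mitochondrial genes. Further genes with G-L136 the highest were Cyp3a11 at 144.03 CPM, Fitm1 at 1.86 CPM, Gamt at 31.3 CPM, Gm28437 at 2339.8 CPM, Gm28661 at 3501 CPM, Hpx at 337 CPM, Mup10 at 264 CPM and Mup20 at 703 CPM. Further genes with G-L136 the highest were Ndufs1 at 89.2 CPM, Sdha at 306 CPM, mt-Cytb at 6376 CPM and mt-Nd4 at 6807 CPM. In fat, G-L136 was the lowest library for F13a1 at 82.8 CPM. In fat, G-L138 was the highest library for Actc1 at 11.2 CPM, Actn2 at 3.69 CPM, Chrm2 at 0.317 CPM, Ckm at 2.66 CPM, Dcdc2a at 84.1 CPM, Fabp3 at 6.58 CPM, Gja1 at 159.8 CPM and Mb at 16.7 CPM, most of them heart muscle genes. Further genes with G-L138 the highest were Mybpc3 at 5 CPM, Myh6 at 59.5 CPM, Nppa at 1.51 CPM, Pln at 12.1 CPM, Trim54 at 0.357 CPM, Ttn at 11.5 CPM and Xirp2 at 2.5 CPM. In fat, G-L134 was the highest library for Cd4 at 2.4 CPM, Igkc at 171 CPM and Jchain at 50.3 CPM. In fat, G-L137 was the lowest library for Ldha at 407 CPM. In heart, L2 was the highest library for Alb at 171 CPM, Ambp at 3.47 CPM, Apoa4 at 0.75 CPM, Apoc3 at 1.59 CPM, Cyp2a5 at 1.13 CPM, Cyp3a11 at 1.59 CPM, Hpx at 8.53 CPM and Mrc1 at 46.4 CPM, most of them liver genes. Further genes with L2 the highest were Mup10 at 0.281 CPM and Mup20 at 13.9 CPM. In heart, L8 was the highest library for Abcc9 at 568 CPM, Alas2 at 103 CPM, Cldn5 at 38.9 CPM, Hba-a1 at 1030.2 CPM, Hba-a2 at 2085 CPM, Hbb-bs at 2529 CPM and Ldha at 578 CPM, among them 4 red blood cell genes. In heart, L1 was the highest library for Myh6 at 37123 CPM. In heart, L1 was the lowest library for Gm28437 at 22493 CPM and mt-Co1 at 139447 CPM. In heart, L9 was the highest library for Hspa5 at 497 CPM and Ubd at 0.146 CPM. In heart, L9 was the lowest library for Pnpla2 at 382 CPM. In heart, L5 was the lowest library for Cox7a2 at 180.4 CPM and Hk1 at 152 CPM. In heart, L6 was the highest library for Pgam1 at 70.9 CPM.

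The tissue difference itself differed between the vectors for Ypel2 (interaction 0.62, SE 0.08, edgeR adjusted p = 0.000898) and Zfp395 (0.66, SE 0.10, adjusted p = 0.00257), as a test of the interaction over 16584 genes. G-L140, which no main comparison used, held 7744 CPM of cardiomyocyte markers, above the 35.3 to 149.4 CPM of the other fat libraries of its group.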

How the results depend on the processing

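No paired analysis was possible because the heart and fat libraries share no number and the labels do not tie them to the same mice. Under library totals, chosen after seeing the data, 2509 genes were higher in heart and 11486 in fat, 1320 and 7002 beyond 2-fold, and the cause was not tested. The direction of 10 genes turned under that scaling, at log2 differences of -0.86 for Acsl1, -0.31 for Alas2, -0.64 for Asph, -0.94 for Cd4, -0.50 for Fdft1, -0.12 for Hbb-bs, -0.01 for Kdr, -0.52 for Npr2, -0.54 for Rplp0 and -0.84 for Slc2a1. The interaction of tissue and vector was called for 4 genes with G-L140 and for 90 by DESeq2, against 2 by edgeR, and the cause was not tested. Leaving out 1 library at a time gave 6129 to 6230 genes higher in heart and 6432 to 6552 in fat, and 2599 to 2681 and 3038 to 3185 beyond 2-fold. The spread was 0.0866 to 0.11 in heart and 0.195 to 0.255 in fat. Other genes that turned did not pass the test in the first place. Cd4 was -0.05 with upper-quartile factors, -0.07 with G-L140 and -0.10 to 0.55 when leaving out 1 library at a time. Thbd was 0.07 by limma voom and -0.13 to 0.12 when leaving out 1 library. In the same way Srebf2 was -0.11 to 0.00, and Alas2 was -0.17 to 1.0, the lowest value being that without L8. Of 4196 values of 175 genes under all alternatives, 4138 kept direction and call, 18 lost and 14 gained the call, and 26 turned. Genes with few counts in a tissue are limited by depth.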

Other observations

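At 1 CPM or more in every library of a tissue, 12827 genes were detected in heart and 12888 in fat, and 11866 of them in both. Of the heart genes, 72 had a scaled level under 0.1 CPM in all fat libraries, and 56 of the fat genes did so in heart. Since a count of 0 alone allows up to 0.133 to 0.178 CPM in a fat library and 0.0981 to 0.116 CPM in a heart library before scaling, these genes were not detected or hardly detected at this depth, and a true level under 0.1 CPM was not shown. The genes named here were chosen after their values were seen, from the most abundant of each set. On the heart side, after Lrrc14b and Nkx2-5, were Gpr22, an orphan receptor, at a mean of 35.9 CPM, Irx4, a ventricular homeobox factor, at 32.3 CPM, and Kcnj12, an inward rectifier potassium channel, at 29.3 CPM. On the fat side, after Tph2, Ugt1a6b (46.5 CPM, of a family of near-identical genes) and Gpr50, were Crtac1 at 30.9 CPM and Mc2r, the receptor of adrenocorticotropic hormone, at 19.1 CPM.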
